A study of Mus musculus with 8 samples.

Results

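The genes described here are 47 genes of the extracellular matrix and of its remodelling: collagens, laminins, nidogens, elastic fibre proteins, matricellular glycoproteins, small proteoglycans, cross-linking enzymes, proteases and protease inhibitors. They were chosen by name for what their proteins do in the matrix, with earlier results of these data known. A probe with a matched name was found for 44 of them, among 18842 named genes on the array, and all 44 passed the filter on dim probes, which left 13619 named genes in all. Col12a1, Lamc1 and Lox had no matched probe and were not analysed here. Several probes, up to 3, were matched for 19 of the genes, and the brightest then stood for the gene.

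Cells extend, stiffen and clear the matrix around them with these proteins. Fibrillar collagens give tensile strength, and lysyl oxidases cross-link them. Laminins, type IV collagen and nidogens form the basement membrane, to which neural progenitors attach. Matricellular proteins and proteoglycans tune adhesion and growth factor supply, and metalloproteinases and plasminogen activators cut the matrix, held in check by the TIMP inhibitors. Fibroblasts are known to give up much of this programme when they are reprogrammed.

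All samples came from 1 line, N31, whose neural progenitor cells (NPC) had been obtained from embryonic stem cells of the mouse. The line expressed W20 or, in its place, EGFP, a green fluorescent protein that served as the control. The series is titled for bacterial proteins that speed up reprogramming. NPC were grown on gelatin with EGF and bFGF, each at 10 ng/ml. The reprogramming samples were taken 72 h after the start: they had been in the same medium with doxycycline (Dox) at 40 ng/ml for 48 h, and then in medium with 10% KSR, LIF at 1000 U/ml and the same Dox dose for 24 h. The 4 groups, EGFP NPC, W20 NPC, EGFP at 72 h and W20 at 72 h, had 2 arrays each. Nothing in the labels tells whether replicate arrays were separate cultures. The p-values here therefore rest on array-to-array spread alone, and that spread may be technical. The labels do not say either how W20 and EGFP were delivered, and no probe used here reads either RNA.

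Levels are given as log2 of the signal minus the array's 75th percentile, so a level of 0 is that percentile, and only levels of the same probe are compared. Differences are log2 differences ± SE with n = 2 arrays per group, from one limma model of all 8 arrays, and a gene is called higher or lower where its Benjamini-Hochberg adjusted p over the 13619 genes is under 0.05. With 2 arrays against 2, an exact permutation test of a single gene could not give a p below 0.333. Both NPC groups lay on 1 slide and both 72 h groups on another, so W20 was compared with EGFP within a slide, while the change over 72 h and the slide cannot be told apart. On both slides EGFP held positions 1 and 2 and W20 positions 3 and 4, so kind of cell and position cannot be told apart either. Spots well above background made up 57.0% to 62.4% per array, and no spot was saturated. In bulk RNA, fewer cells of a type and less RNA per cell cannot be told apart.

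The label NPC was set against marker genes. Of 17 neural progenitor markers, 15 were above background in EGFP NPC and 12 in W20 NPC, among them Nes at 3.03 and 3.22, Vim at 6.88 and 7.06 and Sox2 at -1.98 and -2.70, and Olig2 was not above background on any array. Of 15 fibroblast and meningeal markers, 12 were above background in EGFP NPC and 11 in W20 NPC, among them Prrx1 at 4.36 and 3.57. Of 10 embryonic stem cell markers, 8 had a probe. Of these, 6 were above background in EGFP NPC and 5 in W20 NPC, Klf2 the brightest, while Pou5f1 and Dppa3 were not on any array.

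The regulatory sequence shown here is that of genes called lower in W20 cells at both stages, selected by the rule given next. In all, 12 of the genes were called lower in W20 cells at both stages and by at least 2-fold at one or both, where a gene not above background counts at its bound. For 6 of these the RefSeq promoter table of build GRCm38.p6 held an entry, with 7 annotated starts between them. It held none for Col1a1, Col26a1, Nid2, Loxl1, Mgp and Mmp2, so some of the largest decreases are not shown. The last 150 bases before the start are written 5′ to 3′ on the gene's strand, with capitals for the searched motifs, found on either strand.
Bgn, chrX:73483451-73483600, plus strand: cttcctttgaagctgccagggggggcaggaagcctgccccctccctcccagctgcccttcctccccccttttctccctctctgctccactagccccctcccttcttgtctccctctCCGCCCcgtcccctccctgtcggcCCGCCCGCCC
Col11a1, chr3:114030390-114030539, plus strand: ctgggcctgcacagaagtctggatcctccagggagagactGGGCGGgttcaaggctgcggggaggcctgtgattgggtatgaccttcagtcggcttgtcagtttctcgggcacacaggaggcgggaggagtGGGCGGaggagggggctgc
Col3a1, chr1:45311388-45311537, plus strand: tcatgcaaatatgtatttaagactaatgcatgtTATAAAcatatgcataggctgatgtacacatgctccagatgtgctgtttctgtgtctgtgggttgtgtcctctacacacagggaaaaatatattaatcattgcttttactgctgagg
Ltbp2, chr12:84876492-84876641, minus strand: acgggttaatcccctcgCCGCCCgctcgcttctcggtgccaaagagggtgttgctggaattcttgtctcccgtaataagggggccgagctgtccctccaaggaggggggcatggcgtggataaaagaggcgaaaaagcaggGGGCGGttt
Mmp14, chr14:54431448-54431597, plus strand: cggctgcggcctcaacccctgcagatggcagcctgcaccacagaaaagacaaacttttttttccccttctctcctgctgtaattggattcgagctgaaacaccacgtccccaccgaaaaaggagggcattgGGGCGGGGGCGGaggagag
Postn, the downstream of its annotated starts, chr3:54360957-54361106, plus strand: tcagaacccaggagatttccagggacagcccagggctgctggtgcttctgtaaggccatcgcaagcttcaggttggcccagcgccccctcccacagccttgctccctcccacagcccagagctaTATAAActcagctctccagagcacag

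The motifs searched, each on both strands over 250 bases before and 50 after a start, were the TATA box TATAAA, the AP-1 site TGACTCA, the Smad box GTCTAGAC and the Sp1 box GGGCGG. None of these contains another, though copies of one motif can overlap, as in Bgn. Promoters were found for 27 of the 47 genes, 32 in all. The Sp1 box was in 23 of the 32 (71.9%), against 35.7% of all 32851 promoters of the table and 46.2% of its 21263 protein-coding ones. TATAAA was in 6 of 32 (18.8%), against 13.6% of all promoters, in Col3a1, Mmp3, Postn, Thbs2 and Tnc. Some promoters overlap, so the same copy can count more than once. Tnc held the same TATAAA and the same Sp1 box in overlapping promoters, and Col4a1 and Col4a2 shared an Sp1 box. TGACTCA was in Mmp3 and Col6a1, 2 of 32 (6.25%) against 5.20% of all, and GTCTAGAC was in none of the 32, against 0.213% of all. In Postn TATAAA began at -26 before the downstream start, and the 150 bases before its upstream start held none of the motifs. These are matches of letters, and no binding was measured.

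The first question was how W20 relates to matrix expression in the progenitors themselves. In NPC the matrix genes were mostly lower with W20. Of the 44, 31 were called lower, 3 higher and 10 neither, while 23.7% of all genes tested were called lower and 31.8% higher. The median difference of the 44 was -0.52, against 0.04 over all genes. The fitted difference was at least 2-fold downward for 13 of the 44 (29.5%), against 2.95% of all genes. It was 2-fold upward for no member, against 1.12% of all genes, a share too small to set that count apart. One of the 13, Lum, was not above background in W20 NPC and its bound is smaller. Thus 12 reach 2-fold by a measured difference or a bound under the main background correction. The split of all calls depended on the scaling: 57.3% of them were higher in the main setting and 37.1% with spike-in scaling, where 28 of the 44 were called lower and 1 higher. At 72 h the picture was similar in direction and smaller for many genes: 30 were called lower, 1 higher and 13 neither, against 24.3% and 28.5% of all genes, with a median of -0.47 against 0.03. With the 5 genes that were not above background in 1 or both groups at 72 h set to their bound, or to 0 without one, that median was -0.41. The fitted difference at 72 h was at least 2-fold downward for 9 of the 44 (20.5%), against 2.42% of all genes. Mmp3 among them has no such bound, which leaves 8 under the main background correction. Of all calls at 72 h, 53.9% were higher, and 36.8% with spike-in scaling, where 26 of the 44 were called lower and 2 higher. Those 2 were Lama1 and Lum, and Lum was not well above background in either 72 h group. The genes called lower at both stages numbered 25, which is 80.6% of those called lower in NPC and 83.3% of those at 72 h. Over all genes those shares were 57.1% and 55.7%. No member was called higher at both stages. Of all genes tested, 13.5% were called lower at both stages and 17.8% higher at both.

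**Figure D1:**
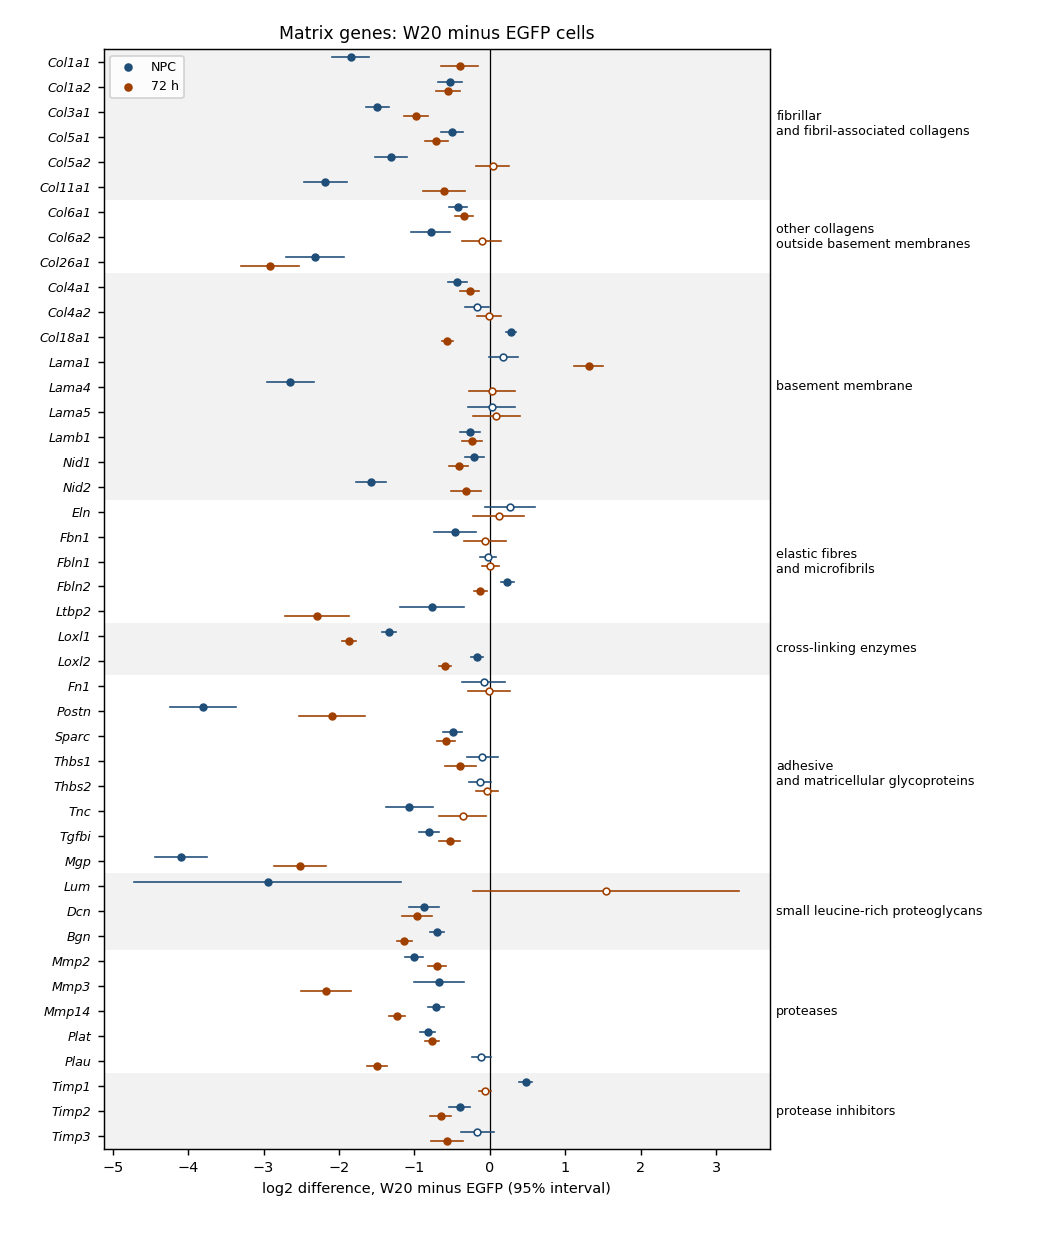
Log2 difference between W20 and EGFP cells for the 44 matrix genes (rows, grouped by role), in NPC (blue) and at 72 h (brown). Points are limma estimates, filled where called at an adjusted p under 0.05, and lines are 95% intervals. Most points lie left of 0 at both stages: 31 of 44 were called lower in NPC and 30 at 72 h, and Mgp at -4.10 in NPC lies farthest left.

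Replicate spread and the levels of marker genes are given here beside these counts. The control NPC arrays differed from each other over the matrix genes: replicate 2 was above replicate 1 for 38 of the 44, with a median gap of 0.12, whereas over all genes it was above for 45.4%, with a median gap of -0.01. The median SD of the 44 in that group was 0.084, against 0.035 over all genes. In W20 NPC replicate 2 was above replicate 1 for 17 of the 44, against 55.5% of all genes. At 72 h replicate 2 was above for 31 of the 44 with EGFP, against 43.6% of all genes. With W20 at 72 h it was also above for 31, against 37.1% of all genes. Leaving out either EGFP NPC array kept the matrix genes lower: over all leave-one-out fits, 27 to 31 were called lower in NPC and 25 to 31 at 72 h.

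Mesenchymal markers were also mostly lower with W20. Of the 15 fibroblast and meningeal markers, 13 were tested, and in NPC 9 were called lower and 3 higher, with Pdgfrb, the PDGF receptor of mural and fibroblast cells, at -2.26 and Foxc1 at -1.18, and Tbx18 called higher at 0.43. Their summed linear signal, in units of each array's 75th percentile, was 41.5 to 46.2 on the EGFP NPC arrays and 27.9 to 28.4 on the W20 NPC arrays, and 29.8 to 30.0 and 24.6 to 25.4 at 72 h. The defining markers Dpt and Slc6a13 were not above background on any array. At 72 h 7 of the 13 were called lower and 4 higher, with Thy1 at -1.82 and Pdgfrb at -1.12, and Foxd1 at 1.48 and Crabp2 at 0.52. Of 12 pericyte and smooth muscle markers, 9 were tested, and in NPC 5 were called lower and 1 higher, which was Cspg4 (0.76). Their summed signal was 49.8 to 54.4 in EGFP NPC and 39.9 to 41.0 in W20 NPC, and 69.4 to 71.4 and 40.3 to 41.0 at 72 h, and Rgs5 and Kcnj8 were never above background. Without Acta2, the brightest, the sum was 28.3 to 32.3 and 17.8 to 18.2 in NPC, and 40.2 to 41.6 and 14.4 to 14.8 at 72 h. At 72 h 7 of the 9 tested pericyte and smooth muscle markers were called lower and 1 higher, again Cspg4 (0.62). The sum of the 17 neural progenitor markers was 157 to 167 in EGFP NPC and 177 to 190 in W20 NPC, and 171 to 189 and 175 to 182 at 72 h. Most of it was Vim, and without Vim the sum was 44.3 to 44.5 and 49.8 to 50.6 in NPC. At 72 h the sum without Vim was 44.5 to 44.8 with EGFP and 47.7 to 49.0 with W20. Of the 16 of these markers tested, 5 were called lower and 3 higher in NPC, and 4 and 5 at 72 h. Of all genes, 23.7% were called lower and 31.8% higher in NPC, and 24.3% and 28.5% at 72 h. The fitted differences of the 16 ran from -2.39 to 0.43 in NPC, where 3 of the 5 lower calls were at least 2-fold. At 72 h they ran from -1.47 to 1.77, with 3 lower calls and 1 higher call at least 2-fold. Some of the 16 were not above background in 1 or both groups compared. The part of these marker levels in the matrix differences was not tested. Of 10 endothelial markers, 6 were above background on some array, Egfl7 the brightest, and 4 on none, Pecam1 and Cdh5 among them. For the 5 of these tested, 2 were called lower and 0 higher in NPC, and 3 and 1 at 72 h. Of the 8 immune markers with a probe, 2 were above background on some array and 6 on none, Ptprc and Aif1 among them.

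Fibrillar collagens were lower with W20 as a class: all 6 measured members were called lower in NPC, with a median of -1.40, and 5 of 6 at 72 h, with a median of -0.58. Counts for this and the following classes are to be read against all genes. Of these, 23.7% were called lower and 31.8% higher in NPC, and 24.3% and 28.5% at 72 h. Col11a1, a minor chain that sets fibril width, was at 0.75 and 1.11 on the EGFP NPC arrays and at -1.25 on both W20 NPC arrays. The groups did not overlap, and the difference was -2.18 ± 0.11 (adjusted p = 0.00011). At 72 h Col11a1 stood at 0.93 and 1.02 with EGFP and at 0.35 and 0.38 with W20, a difference of -0.61 ± 0.11 (adjusted p = 0.0064). Its second, dimmer probe read -0.68 at 72 h, which was not called. Col1a1, the main chain of type I collagen, was at 1.76 and 2.04 in EGFP NPC and at 0.09 and 0.02 in W20 NPC (-1.85 ± 0.10, adjusted p = 0.00012). Its 72 h levels were 1.96 and 2.07 with EGFP and 1.57 and 1.66 with W20. That smaller difference, -0.40 ± 0.10, lost its call without EGFP 72 h replicate 2 or W20 72 h replicate 1, with an adjusted p of up to 0.087. The partner chain Col1a2 differed less, with -0.53 ± 0.06 in NPC and -0.56 ± 0.06 at 72 h. Its levels went from 6.95 and 7.14 to 6.54 and 6.50 in NPC and from 6.88 and 6.92 to 6.32 and 6.37 at 72 h.

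Col3a1, the type III chain, was at 4.15 and 4.33 in EGFP NPC and at 2.77 and 2.74 in W20 NPC, and at 3.58 and 3.53 against 2.60 and 2.55 at 72 h. The differences were -1.49 ± 0.06 (adjusted p = 7.7e-05) and -0.98 ± 0.06 (adjusted p = 0.00017). Both were well outside the spread between arrays. The type V chains, which start fibril assembly, differed from each other. Col5a2 was at -1.67 and -1.54 in EGFP NPC against -2.82 and -3.02 in W20 NPC (-1.31 ± 0.09), and the 72 h groups overlapped, with -2.92 and -2.77 against -2.80 and -2.82. Col5a1 was -0.50 ± 0.06 in NPC and -0.71 ± 0.06 at 72 h. Its second probe read -0.20 in NPC, which was not called, and -0.56 at 72 h.

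Of the other collagens outside basement membranes, Col26a1 differed most. It was at -2.23 and -2.08 in EGFP NPC and at -4.36 and -4.58 in W20 NPC, a difference of -2.32 ± 0.16 (adjusted p = 0.0002). At 72 h it was at -3.99 and -4.41 with EGFP and not well above background on either W20 array, at least 2.00-fold lower (adjusted p = 0.00011). A fold given as "at least" divides the brighter group's mean by a floor for the dim group, which on each array is the lowest signal of any probe well above background, or the probe's own signal where that is larger. It holds for the background correction of the main setting alone, since several differences were smaller with normexp, as given below. The beaded filament chains of type VI collagen were both lower in NPC, with differences of -0.78 ± 0.10 for Col6a2 and -0.43 ± 0.05 for Col6a1. At 72 h Col6a1 was called lower (-0.34 ± 0.05) and Col6a2 was not (-0.11 ± 0.10, adjusted p = 0.43).

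Among the 9 measured basement membrane genes, 5 were called lower and 1 higher at each stage, with Col18a1 the higher one in NPC and Lama1 at 72 h. Lama4, the laminin chain typical of vessels and mesenchyme, was at -0.14 and 0.16 in EGFP NPC and at -2.60 and -2.68 in W20 NPC (-2.65 ± 0.13, adjusted p = 9e-05). At 72 h the groups overlapped, at -2.01 and -1.77 against -1.93 and -1.80 (0.03 ± 0.13, 95% interval -0.28 to 0.34). Nid2, a linker of laminin to type IV collagen, was at 0.43 and 0.61 against -1.07 and -1.04 in NPC (-1.57 ± 0.08), and at -0.28 and -0.30 against -0.70 and -0.52 at 72 h. The second of these, -0.32 ± 0.08, lost its call with spike-in scaling and without EGFP 72 h replicate 1 or 2 or W20 72 h replicate 1 (adjusted p of up to 0.089).

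Lama1, the laminin chain of early embryonic basement membranes, was the only matrix gene called higher with W20 at 72 h. It was not well above background in either NPC group, and it was at -4.57 and -4.62 with EGFP and at -3.30 and -3.28 with W20 at 72 h (1.31 ± 0.08, adjusted p = 0.00013). Col18a1, the source of endostatin, was 6.44 and 6.42 in EGFP NPC and 6.72 and 6.71 in W20 NPC. It was thus called higher there (0.28 ± 0.03), a call lost with spike-in scaling (adjusted p = 0.18). At 72 h it was lower with W20, at 4.83 and 4.85 against 5.39 and 5.42 (-0.56 ± 0.03, adjusted p = 9.4e-05).

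The major type IV collagen chains showed small differences or none that were called. Col4a1 was -0.44 ± 0.05 in NPC and -0.27 ± 0.05 at 72 h, and Col4a2 -0.17 ± 0.06 and -0.01 ± 0.06, neither called. The call of Col4a1 at 72 h was lost with spike-in scaling (adjusted p = 0.11), and Col4a2 in NPC was called lower under 5 of the alternatives, among them normexp and quantile normalization. These genes are transcribed head to head, and their annotated starts in the promoter table lie 21 bases apart. Nid1 and Lamb1 were called lower at both stages, Nid1 with -0.20 ± 0.05 and -0.41 ± 0.05 and Lamb1 with -0.26 ± 0.05 and -0.23 ± 0.05. Nid1 in NPC lost its call without EGFP NPC replicate 2 or either W20 NPC array, and Lamb1 at 72 h in a fit of the 72 h groups alone and without EGFP 72 h replicate 2 or W20 72 h replicate 1. With spike-in scaling Nid1 was not called in NPC, nor Lamb1 at either stage. Lama5, the broad epithelial and neural chain, was not called at either stage (0.02 ± 0.13 and 0.09 ± 0.13).

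Of the elastic fibre genes in NPC, 2 of 5 were called lower and 1 higher, with a class median of -0.03. Over all genes 23.7% were called lower and 31.8% higher, and 5 genes are too few to set these counts apart. Ltbp2, which binds fibrillin microfibrils, was at -2.78 and -2.57 in EGFP NPC and at -3.68 and -3.21 in W20 NPC (-0.77 ± 0.17), a call lost without EGFP NPC replicate 2 (adjusted p = 0.062). Ltbp2 at 72 h stood at -3.53 and -3.35 with EGFP and was not well above background with W20, at least 3.39-fold lower (adjusted p = 0.00027). Fbn1, the main microfibril protein, was -0.47 ± 0.11 in NPC, a call lost without EGFP NPC replicate 2 or W20 NPC replicate 2, and -0.07 ± 0.11 at 72 h. Fbln2 was called higher in NPC (0.23 ± 0.03) and lower at 72 h (-0.13 ± 0.03). The NPC call was lost with spike-in or quantile scaling. The 72 h call was lost with spike-in or median scaling, with normexp, in a fit of the 72 h groups alone and without any of 3 single arrays, namely EGFP 72 h replicate 1, EGFP 72 h replicate 2 and W20 72 h replicate 1. Elastin, Eln (0.27 ± 0.14 in NPC), and Fbln1 (0.01 ± 0.04 at 72 h) were not called at either stage.

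The lysyl oxidase family, which starts collagen and elastin cross-links, was lower at both stages in both measured members. Loxl1 was at 3.05 ± 0.06 (SD, n = 2) in EGFP NPC and at 1.72 and 1.71 in W20 NPC (-1.33 ± 0.04, adjusted p = 5.4e-05). The 72 h levels were 1.15 and 1.17 with EGFP and -0.72 and -0.70 with W20 (-1.87 ± 0.04, adjusted p = 2.1e-05). Neither pair overlapped, and both differences were far larger than the gap between replicate arrays. Loxl2 was -0.17 ± 0.03 in NPC, a call lost with spike-in or median scaling, and -0.60 ± 0.03 at 72 h.

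The largest differences of all stood among the adhesive and matricellular glycoproteins, where 5 of 8 were called lower at each stage. Mgp, a vitamin K-dependent inhibitor of calcification, was at -0.53 and -0.17 in EGFP NPC and at -4.43 and -4.46 in W20 NPC, a difference of -4.10 ± 0.14 (adjusted p = 5.4e-05), which is 17.1-fold. With normexp background correction it was -2.86. The 72 h levels were -2.10 and -1.96 against -4.68 and -4.41 (-2.51 ± 0.14, adjusted p = 0.00012). Postn, periostin, which binds collagen and integrins, was at -1.64 and -1.14 in EGFP NPC and at -5.19 on both W20 NPC arrays (-3.80 ± 0.18, adjusted p = 8.8e-05). Postn at 72 h was at -3.11 and -3.02 with EGFP and not well above background with W20, at least 4.26-fold lower (adjusted p = 0.00042).

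Tnc, tenascin C, a matrix protein of neural stem cell niches, was at -0.92 and -0.70 against -1.93 and -1.83 in NPC (-1.07 ± 0.13, adjusted p = 0.0011) and was not called at 72 h (-0.36 ± 0.13, adjusted p = 0.057), though it was under 4 of the alternatives (adjusted p as low as 0.006). Tgfbi, an integrin ligand induced by TGF-beta, was at 6.00 and 6.14 against 5.27 and 5.26 in NPC (-0.81 ± 0.06) and at 4.83 and 4.84 against 4.34 and 4.26 at 72 h (-0.53 ± 0.06). Sparc, a collagen-binding glycoprotein, was lower by a similar amount at both stages, -0.49 ± 0.05 and -0.58 ± 0.05. Thbs1, which can activate latent TGF-beta, was not called in NPC and was -0.39 ± 0.08 at 72 h, a call lost without EGFP 72 h replicate 2 (adjusted p = 0.053). Fibronectin, Fn1, was not called at either stage. It was at 2.48 and 2.65 against 2.48 and 2.49 in NPC and at 0.27 and 0.50 against 0.25 and 0.50 at 72 h, with 95% intervals of the difference of -0.36 to 0.20 and -0.30 to 0.27. Thbs2 was also not called at either stage.

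Small leucine-rich proteoglycans, which coat collagen fibrils, were lower in all 3 members in NPC and in 2 of 3 at 72 h. Bgn, biglycan, was at 2.80 and 2.88 against 2.15 and 2.13 in NPC (-0.70 ± 0.04) and at 1.57 and 1.60 against 0.43 and 0.47 at 72 h (-1.13 ± 0.04, adjusted p = 3.8e-05). Dcn, decorin, was at 0.39 and 0.49 against -0.39 and -0.47 in NPC (-0.87 ± 0.08) and at -0.73 and -0.95 against -1.80 and -1.81 at 72 h (-0.96 ± 0.08). Lum, lumican, was above background in EGFP NPC alone, at -4.59 and -4.28, and was at least 1.99-fold lower in W20 NPC (adjusted p = 0.016). Leaving out W20 NPC replicate 1 or either EGFP NPC array ended that call (adjusted p of up to 0.073).

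The matrix-cutting enzymes were lower with W20, 4 of 5 in NPC and 5 of 5 at 72 h, with class medians of -0.72 and, with Mmp3 at 72 h set to 0 for want of a bound, -0.76. Mmp2, a gelatinase, was at 1.47 and 1.56 against 0.55 and 0.48 in NPC (2.01-fold lower, adjusted p = 9.9e-05) and at 0.97 and 1.07 against 0.33 and 0.31 at 72 h (-0.70 ± 0.05). Mmp14, the membrane-bound enzyme that activates Mmp2, was at 3.65 and 3.72 against 3.02 and 2.92 in NPC (-0.72 ± 0.04) and at 3.20 and 3.21 against 1.97 and 1.98 at 72 h (-1.23 ± 0.04, adjusted p = 4e-05). In each of these comparisons both W20 arrays lay below both EGFP arrays.

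Plau, urokinase, the plasminogen activator of migrating cells, was not called in NPC, at 0.86 and 0.83 against 0.69 and 0.78 (-0.11 ± 0.05, adjusted p = 0.12). At 72 h it was at -0.62 and -0.64 with EGFP and at -2.19 and -2.07 with W20 (-1.50 ± 0.05, adjusted p = 4e-05). Plat, the tissue plasminogen activator, was lower at both stages, with differences of -0.83 ± 0.04 and -0.76 ± 0.04. Mmp3, stromelysin, was at -1.19 and -1.05 against -1.72 and -1.87 in NPC (-0.68 ± 0.13, adjusted p = 0.0074). At 72 h it was at -5.25 and -5.42 with EGFP and not well above background with W20 (adjusted p = 0.00016). No fold is given there, since the bound falls under 1.

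The TIMP inhibitors did not follow one direction. Timp1 was higher in W20 NPC, at 5.59 and 5.63 against 5.14 on both EGFP arrays (0.47 ± 0.03, adjusted p = 0.00022), and was not called at 72 h (-0.06 ± 0.03). Timp2 was lower at both stages, at 6.64 and 6.76 against 6.25 and 6.35 in NPC (-0.40 ± 0.06) and at 6.41 and 6.34 against 5.70 and 5.74 at 72 h (-0.65 ± 0.06). Timp3, the inhibitor held in the matrix, was not called in NPC (-0.16 ± 0.09) and was lower at 72 h (-0.57 ± 0.09, adjusted p = 0.003).

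**Figure D2:**
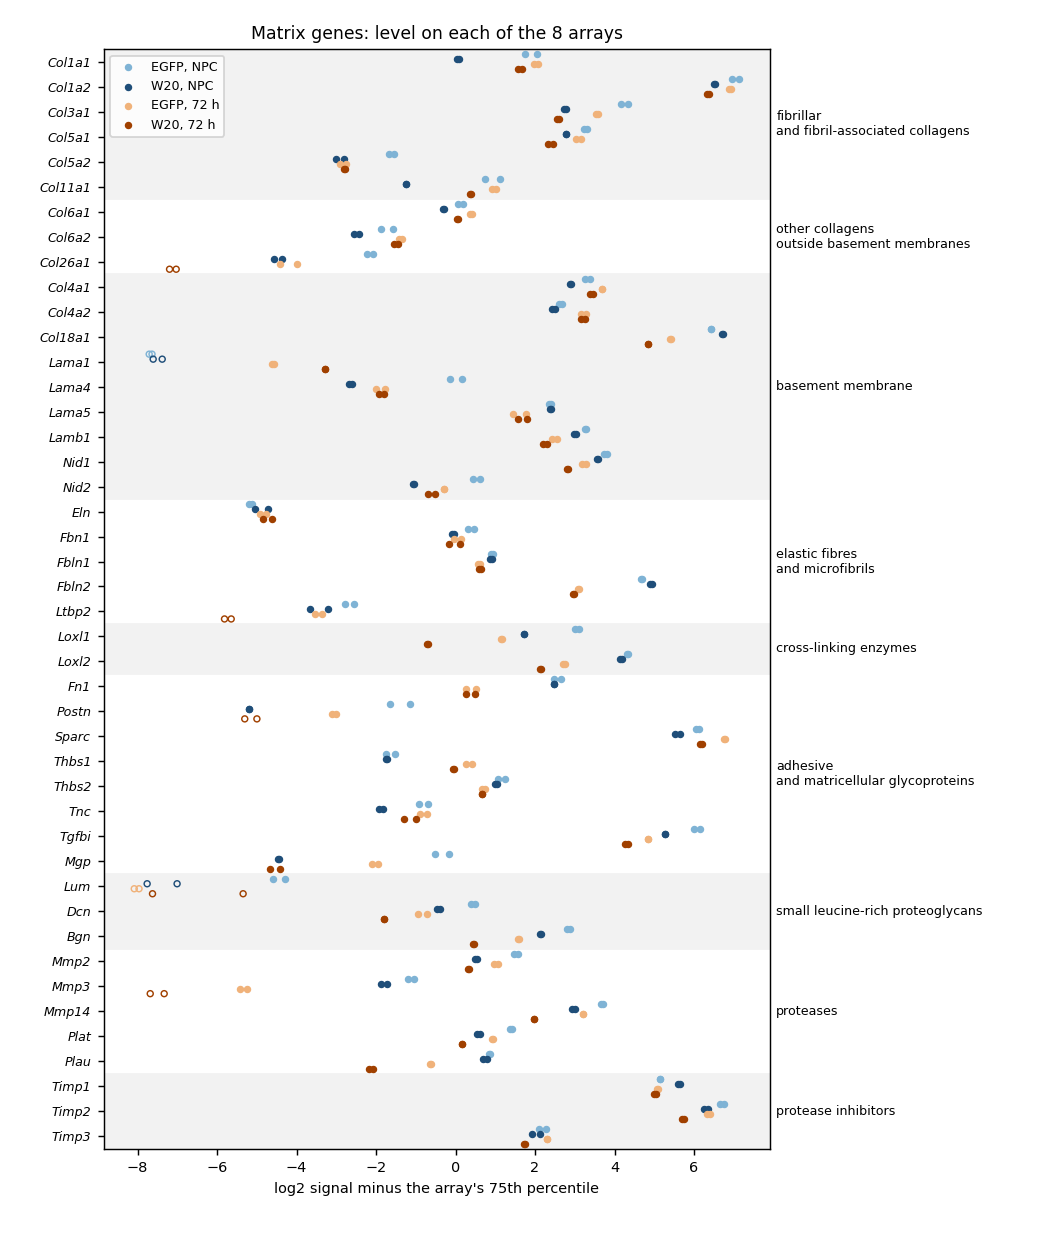
Level of each of the 44 matrix genes on each of the 8 arrays (log2 signal minus the array's 75th percentile; 2 points per group and gene, colours for the groups, open points where the gene was not well above background in that group). The EGFP NPC points lie to the right of the W20 NPC points for most genes, as for Mgp and Postn, while Fn1, Lama5 and Thbs1 separate mainly by stage.

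Whether the W20 effect differed between the stages was tested by the difference of the W20 effects, 72 h minus NPC. It was called for 24 of the 44 matrix genes, 14 with a higher value at 72 h and 10 with a lower one, against 14.1% and 16.8% of all genes, with a median of 0.05 against -0.02. The higher values held 4 of 6 fibrillar collagens, 4 of 8 matricellular glycoproteins and 3 of 9 basement membrane genes. For Lama4 the difference of effects was 2.68 ± 0.18, for Mgp 1.58 ± 0.20, for Col11a1 1.57 ± 0.16, for Col1a1 1.44 ± 0.14, for Col5a2 1.35 ± 0.12 and for Nid2 1.26 ± 0.11: each was lower with W20 in NPC and less so, or not called, at 72 h. The dimmest of the 3 Col1a1 probes read 0.73 for the difference of effects, which was not called. The genes with the lower value included 3 of the 5 proteases and both cross-linking enzymes. The difference of effects was -1.39 ± 0.08 for Plau, -0.51 ± 0.06 for Mmp14, -0.54 ± 0.05 for Loxl1 and -0.43 ± 0.05 for Loxl2, and -0.43 ± 0.05 for Bgn and -0.54 ± 0.05 for Timp1. For Col18a1 it was -0.85 ± 0.04, with calls of opposite sign at the stages. Calls also passed for Postn, Lama1, Lum, Mmp3 and Ltbp2, but each of these was not above background in 1 group or more, so the sizes of their differences are not bounds. The call for Ltbp2 was lost with normexp background correction (adjusted p = 0.43). That for Lum was lost in 5 of the 8 leave-one-out fits, namely without either EGFP array of NPC or 72 h or without W20 NPC replicate 1 (adjusted p of up to 0.070), and with normexp its difference was 0.95. The sign turned with normexp for Mmp3, to 0.37. With spike-in scaling 4 of the 10 lower calls were made, and those of Loxl1, Loxl2, Bgn, Mmp14, Timp1 and Fbln2 were lost, as were the higher calls of Col3a1 (adjusted p = 0.088), Tgfbi and Mmp2. In the leave-one-out fits 9 to 13 higher calls were made, 9 of them without EGFP 72 h replicate 1. The call of Tgfbi was lost in 7 of the 8 fits, all but that without EGFP NPC replicate 1, and that of Tnc in 6, all but those without EGFP NPC replicate 1 or W20 72 h replicate 1. Mmp2 lost its call in 5, without replicate 2 of either NPC group, EGFP 72 h replicate 1 or either W20 72 h array. Col6a2 lost it in 3, without W20 NPC replicate 2 or replicate 1 of either 72 h group.

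**Figure D3:**
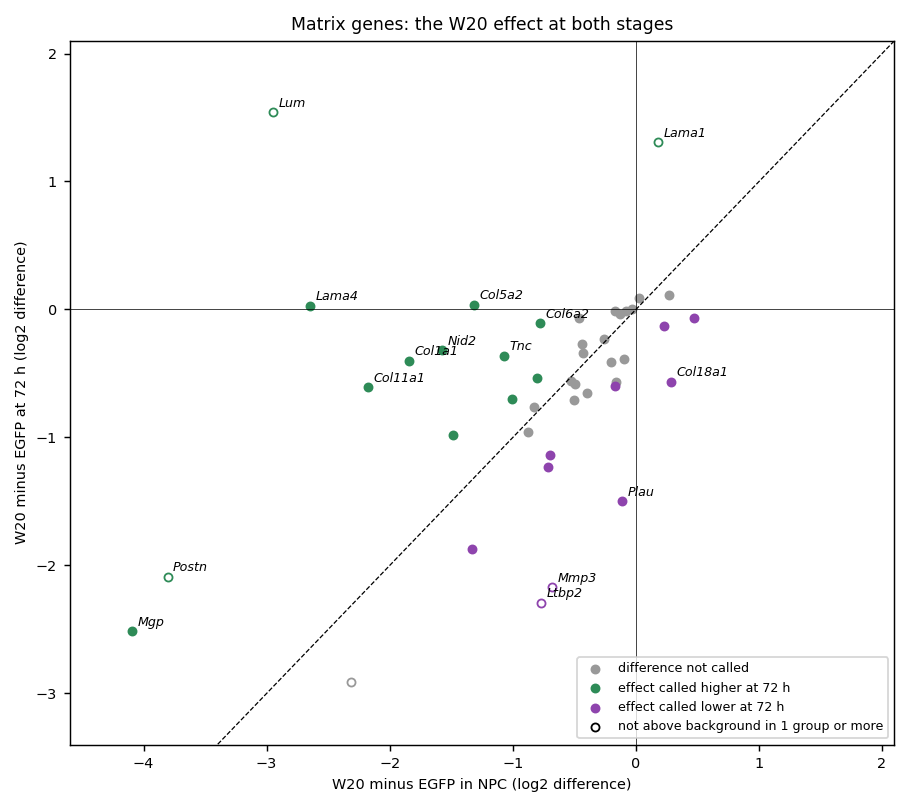
Log2 difference between W20 and EGFP cells in NPC (horizontal axis) and at 72 h (vertical axis) for the 44 matrix genes; on the dashed line the effects are equal. Colours show the called sign of the difference of the effects, and open points mark genes not well above background in 1 group or more. Lama4, Col11a1, Col1a1 and Nid2 lie above the line, and Plau and Col18a1 below it.

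The other comparison of the design is 72 h against NPC within each kind of cell, which shares its arrays with the comparisons above. In EGFP cells 30 of the 44 were called lower on the 72 h arrays, 7 higher and 7 neither, against 33.9% and 36.1% of all genes, with a median of -0.52 against 0.01. In W20 cells 26 were called lower, 12 higher and 6 neither, against 37.2% and 37.5% of all genes, with a median of -0.29 against 0.01. In both kinds of cells the lower calls took in all 5 proteases and both cross-linking enzymes, and the higher calls took in Col4a2, Lama1, Thbs1 and Sparc. All of these differences lie between slides.

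All 5 proteases were called lower at 72 h in both kinds of cells, but Mmp2 in W20 cells lost its call with spike-in scaling and without W20 NPC replicate 1 or W20 72 h replicate 2 (adjusted p of up to 0.19). Mmp3 was -4.22 ± 0.13 in EGFP cells (adjusted p = 3.4e-06) and at least 10.6-fold lower in W20 cells (adjusted p = 7.1e-07), from the NPC levels given above. Plau was -1.47 ± 0.05 with EGFP and -2.86 ± 0.05 with W20. Loxl1 was -1.89 ± 0.04 and -2.42 ± 0.04, and Loxl2 -1.61 ± 0.03 and -2.03 ± 0.03. For Loxl2 the levels were 4.35 and 4.32 in EGFP NPC, 4.18 and 4.14 in W20 NPC, 2.71 and 2.75 in EGFP cells at 72 h and 2.14 and 2.11 in W20 cells at 72 h, so the stages stood further apart than the kinds of cells.

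Several adhesive and elastic fibre genes were likewise lower at 72 h. Fn1 was -2.18 ± 0.11 with EGFP and -2.11 ± 0.11 with W20, with no overlap between stages. Fbln2, an elastic fibre and basement membrane linker, was at 4.68 and 4.67 in EGFP NPC and 3.08 and 3.11 at 72 h (-1.58 ± 0.03, adjusted p = 1e-06). In W20 cells it was at 4.93 and 4.88 and then at 2.95 and 2.99 (-1.94 ± 0.03). Tgfbi was -1.23 ± 0.06 and -0.96 ± 0.06, Bgn -1.26 ± 0.04 and -1.69 ± 0.04, Dcn -1.29 ± 0.08 and -1.37 ± 0.08, and Col18a1 -1.02 ± 0.03 and -1.87 ± 0.03. Mgp was -1.68 ± 0.14 with EGFP and was not called with W20 (-0.10 ± 0.14). Postn was -1.67 ± 0.18 with EGFP and was not called with W20 (0.04 ± 0.18), where it was not well above background at 72 h.

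Thbs1 was higher at 72 h in both kinds of cells, from -1.74 and -1.53 to 0.25 and 0.42 with EGFP (1.98 ± 0.08, adjusted p = 9.2e-06) and from -1.73 and -1.75 to -0.06 and -0.04 with W20 (1.68 ± 0.08, adjusted p = 1.1e-05). Sparc was also higher, by 0.68 ± 0.05 and 0.59 ± 0.05, as was Col4a2, by 0.59 ± 0.06 and 0.75 ± 0.06. Col4a1 was called higher with the tested probe (0.36 ± 0.05 and 0.52 ± 0.05), while its second probe read -0.01 and -0.07, neither called. Lama1 was at least 2.05-fold higher at 72 h with EGFP and at least 4.41-fold higher with W20, since it was not well above background in NPC.

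The fibrillar chains Col1a1 and Col11a1 were not called over time in EGFP cells (0.11 ± 0.10 and 0.04 ± 0.11) and were called higher in W20 cells, Col1a1 by 1.56 ± 0.10 (adjusted p = 3e-05) and Col11a1 by 1.61 ± 0.11 (adjusted p = 4.6e-05). The dimmest of the 3 Col1a1 probes read 0.49 in W20 cells, which was not called. Col6a2 was 1.00 ± 0.10 in W20 cells. Lama4 was -1.90 ± 0.13 in EGFP cells and 0.78 ± 0.13 in W20 cells, with calls of opposite sign, as for Nid2 at -0.81 ± 0.08 and 0.45 ± 0.08. The test of these unequal changes is the difference of effects given above, which is the same contrast. Tnc was not called in EGFP cells with the tested probe (0.01 ± 0.13), while its second probe read -0.50 (adjusted p = 0.013).

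**Figure D4:**
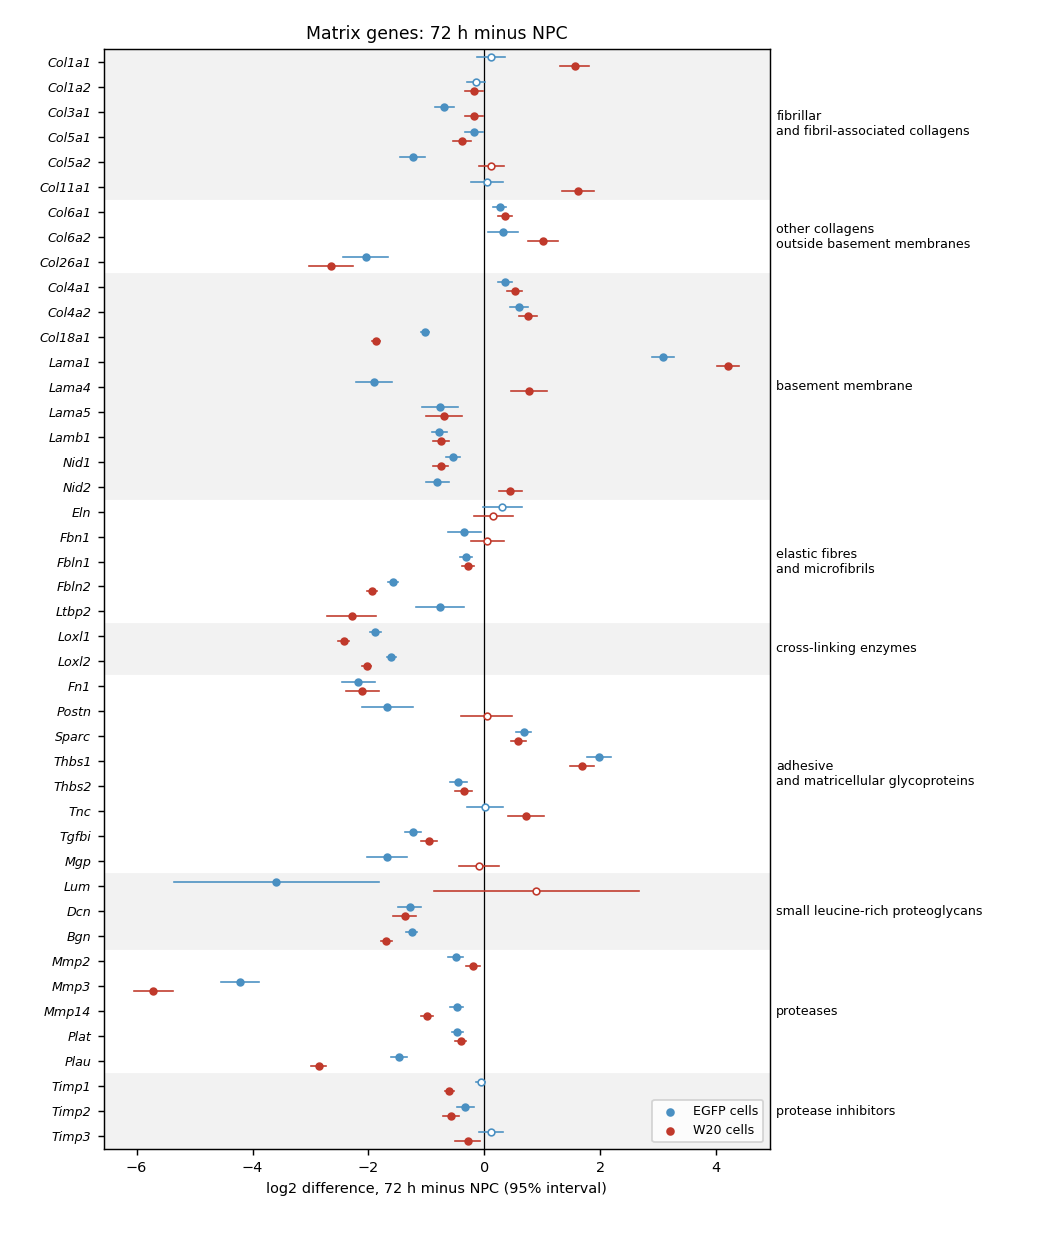
Log2 difference between 72 h and NPC for the 44 matrix genes, in EGFP cells (blue) and W20 cells (red). Points are limma estimates, filled where called, and lines are 95% intervals; stage and slide cannot be told apart. Proteases and cross-linking enzymes lie left of 0 in both kinds of cells, Thbs1 and Sparc right of it, and Lama4 and Nid2 on opposite sides.

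The genes around the matrix list were counted in the same way, to be read against the shares of all genes, 23.7% lower and 31.8% higher in NPC and 24.3% and 28.5% at 72 h. Counts such as the 7 of 21 receptors higher in NPC lie near those shares. Of 19 tested genes for collagen modification and secretion, 7 were called lower and 4 higher in NPC, and 8 and 5 at 72 h, with medians of -0.06 and -0.05. Pcolce2, an enhancer of procollagen processing, was higher at both stages (1.85 ± 0.06 and 0.59 ± 0.06), and Adamts2, a procollagen peptidase, lower (-0.67 ± 0.05 and -0.58 ± 0.05). Also named there by size were P4ha2 (0.31) and P3h1 (-0.56) in NPC and P4ha1 (0.60) and Bmp1 (-0.72) at 72 h, enzymes that hydroxylate or trim procollagen.

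Of 21 matrix receptors tested, 9 were called lower and 7 higher in NPC, and 10 and 3 at 72 h. The collagen receptor chain Itga11 was lower at both, at least 2.18-fold in NPC and with a difference of -1.77 ± 0.18 at 72 h. Itga1, another collagen receptor chain, was -0.87 in NPC. The chain Itga3 was 0.52 in NPC and -0.85 at 72 h. Itgb3 was 0.60 in NPC, and Ddr2 and Itga6 were each 0.25 at 72 h.

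Among 32 tested other matrix genes, 20 were called lower and 5 higher in NPC, and 21 and 1 at 72 h, with medians of -0.39 and -0.46 where genes not above background count at their bound. Col8a2 was -2.76 ± 0.14 and -2.08 ± 0.14, Mfap4, a microfibril protein, -2.58 ± 0.11 in NPC, and Omd was not above background in W20 cells at 72 h. Col5a3 was higher, at 2.03 ± 0.04 and 0.18 ± 0.04, and Col7a1 was 0.53 ± 0.11 in NPC. Of 25 other proteases and inhibitors, 13 were called lower and 5 higher in NPC, and 17 and 2 at 72 h. Adamts5 was -1.96 ± 0.09 and Mmp9 -1.89 ± 0.21 in NPC, and Mmp9 was at least 1.55-fold lower and Mmp23 -1.67 ± 0.04 at 72 h. Plaur, the urokinase receptor, was 0.64 and cathepsin L, Ctsl, 0.58 in NPC, and Mmp17 was 0.31 and Ctsl 0.14 at 72 h.

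Of 8 neural matrix genes tested, 3 were called higher and 3 lower in NPC, and 2 and 1 at 72 h. Reln was 1.25 ± 0.09 in NPC, Cspg4 0.76 ± 0.16 and 0.62 ± 0.16, and the hyaluronan synthase Has2 -1.03 ± 0.08 in NPC and 2.01-fold lower at 72 h. Ptprz1 was not above background in W20 NPC and was 1.35 ± 0.37 at 72 h. Of 16 genes of TGF-beta supply and reading, the pathway best known to induce collagen, 6 were called lower and 2 higher in NPC, and 9 and 2 at 72 h. The ligand Tgfb2 was -1.97 ± 0.08 in NPC, and Ccn1 was -1.17 ± 0.05. At 72 h Ccn2, a classic target, was -1.05 ± 0.05 and the ligand Tgfb3 -0.64 ± 0.04. Smad2 and Smad3 were 0.32 and 0.22 in NPC, and Tgfbr1 and Smad4 0.14 and 0.12 at 72 h.

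Over the 72 h, Tgfb2 (2.81 ± 0.08) and Ccn1 (2.21 ± 0.05) were the genes of that pathway with the largest increases in W20 cells. In EGFP cells Ccn2 was higher by 1.62 ± 0.05. Smad3 was lower in both, with differences of -0.94 ± 0.03 with EGFP and -1.46 ± 0.03 with W20. Itga11 and Itga4 had the largest increases among receptors in both kinds of cells: Itga11 was 2.74 ± 0.18 with EGFP and at least 4.28-fold higher with W20, and Itga4 1.77 ± 0.08 and 2.04 ± 0.08. Sparcl1 fell, by 9.84-fold and 5.73-fold, and Fbn2, the fibrillin of developing tissue, was higher, with 1.49 ± 0.16 and 3.14 ± 0.16.

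Signals near background also depend on the background correction. With normexp the differences of the dim genes shrank: Postn was -2.21 in NPC and -0.86 at 72 h, Col26a1 -1.29 and -0.48, Mgp -2.86 and -1.41, Ltbp2 -0.50 in NPC and -0.67 at 72 h, Lum -0.70 in NPC, Mmp3 -0.23 at 72 h and Lama1 0.68 at 72 h, all still called with the same sign. Over time Mmp3 was -2.61 with EGFP and -2.24 with W20 under normexp, and Lama1 0.40 and 1.28. The normexp differences of Postn, Ltbp2 and Col26a1 at 72 h and of Lum in NPC were smaller than their "at least" folds. So were those of Lama1 over time and of Mmp3 over time in W20 cells. These folds are therefore not bounds under every background correction.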

How the data were processed

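Total RNA of 8 samples was labelled with Cy3 and hybridised to 1-colour Agilent whole mouse genome arrays. The deposited scanner files hold spot intensities, background-subtracted per the file headers by Agilent Feature Extraction 10.7.3.1. The authors' deposited value table, on a log2 scale, matched the scanner values for the NPC columns alone and served as an alternative there. Here log2 signals were scaled to each array's 75th percentile, control and outlier spots were left out, and spots of a probe were averaged. Probe accessions were named through RefSeq (GRCm38.p6): 27584 probes had a symbol and 13590 had none and were not used. The brightest probe stood for a gene, and a gene was kept where it was well above background on both arrays of 1 group or more.

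Group means were fitted with limma 3.58.1 in R 4.3.3 (4 residual degrees of freedom, 1.75 prior), two-sided, and the fit was tested on simulated data. The 47 genes, their 9 role classes and the other lists were chosen with earlier results of these data known. Named in full were, per class and comparison, up to 3 called genes with the largest differences and the one with the smallest, and, of other lists, up to 2 called in each direction. One such gene is not reported here. The alternatives were other scalings, normexp (on the median signal, as the files hold no mean signal), dim-probe filters, the mean of a gene's probes, fits of 2 groups, the replicate block and each array left out. No separate slide fit was run, since the model of 4 group means already holds the slide.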

Additional observations from a re-analysis of the deposited data

Results flagged for a closer look

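The W20 effect differed between NPC and 72 h, by the test of the difference itself in limma, for 24 of the 44 matrix genes. The value given for each is the W20 effect at 72 h minus that in NPC, on the log2 scale, from 2 arrays per group.

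It was above 0, so that W20 cells lay less far below EGFP cells at 72 h or above them, for 14 genes. Measured above background in all 4 groups were Lama4 (2.68), Mgp (1.58), Col11a1 (1.57), Col1a1 (1.44), Col5a2 (1.35), Nid2 (1.26), Tnc (0.71), Col6a2 (0.68), Col3a1 (0.51), Mmp2 (0.30) and Tgfbi (0.27). For Lum (4.49), Postn (1.71) and Lama1 (1.13) at least 1 group was not above background, and Lum was above it in EGFP NPC alone. The call for Lum was lost in 5 of the 8 leave-one-out fits, and its value was 0.95 with normexp.

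It was below 0 for 10 genes. Measured in all groups were Plau (-1.39), Col18a1 (-0.85), Timp1 (-0.54), Loxl1 (-0.54), Mmp14 (-0.51), Bgn (-0.43), Loxl2 (-0.43) and Fbln2 (-0.36). Ltbp2 (-1.52) and Mmp3 (-1.49) were not above background in W20 cells at 72 h, and with normexp they were -0.17, not called, and 0.37.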

How the results depend on the processing

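Of the single-gene results under each alternative, 3536 kept their direction and their side of the threshold, 131 lost a call, 41 gained one and 2 reversed: with normexp the difference of the W20 effects became 0.81 for Col26a1 and 0.37 for Mmp3, both not well above background in W20 cells at 72 h; the cause was not tested. With spike-in scaling, 1 gene was called higher with W20 in NPC and 2 at 72 h, and 4 had a lower difference of effects. The cause was not tested. At 72 h the 2 were Lama1 and Lum, and Lum was not well above background in either 72 h group. Lum was also the gene added at 72 h without W20 72 h replicate 1. Among genes well above background on all 8 arrays, 0 were called higher at 72 h, as Lama1 then left the test. With each array left out, the genes called higher numbered 3 to 5 in NPC (5 without W20 NPC replicate 1), 1 to 2 at 72 h (2 without W20 72 h replicate 1) and 9 to 13 for the difference of effects.

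Samples with the same replicate number were taken to share only a number: the correlations of their deviations were -0.09 to 0.15, over 0.1 for 3 of the 6 pairs of groups. Those 3 were the pairs among EGFP NPC, EGFP at 72 h and W20 at 72 h. In each of these groups most matrix genes were higher in replicate 2, and the cause was not tested. With the replicate block, 32 were called lower and 3 higher in NPC, and 31 and 1 at 72 h. Under it Col4a2 in NPC (adjusted p = 0.0075) and Tnc at 72 h (adjusted p = 0.006) gained a call. The difference of effects gained one for Col4a2 and Nid1 and lost it for Tgfbi, and over time Col6a2 with EGFP and Col3a1 with W20 lost theirs. The authors' value table changed none of the 44 calls in NPC. No scaling moved the median of all genes by more than 0.0529. Where a lone array was left in a group, it was assumed to vary like the other groups. Signals near background and the number of arrays limit the precision.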
